A study of Mus musculus with 64 samples.

Results

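Il1r1 encodes the signalling receptor for interleukin-1, and its RNA was followed here through 7 stages of mouse (Mus musculus) preimplantation development and 12 groups of 1-cell and 2-cell embryos under inhibitors. Members were the probes whose only symbol in the platform's probe-to-gene table is Il1r1, which left 1 of the 22575 probes, number 13784, and so 1 of the 3089 genes that have a probe of their own. A further probe, number 5346, lists Il1r1 together with Cnot11 and was not a member. The gene was chosen on its stage values, an early peak and a loss after the 4-cell stage seen in earlier results of these data, so those values are a description and carry no test.

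The receptor sits in the cell membrane, binds interleukin-1α and interleukin-1β, and pairs with the accessory chain encoded by Il1rap. The paired chains recruit the adapter Myd88 and kinases of the Irak family, and the ubiquitin ligase Traf6 then carries the signal to NF-kB and the MAP kinases. Il1rn encodes a natural antagonist and Il1r2 a decoy receptor. Interleukin-1 is known in the female reproductive tract for its part in ovulation and in the response of the uterus to the embryo.

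The study put total RNA on 64 arrays of 2 colours, each with a common reference beside the embryo sample. In the stage set (28 arrays, reference named Universal Control) 4 arrays were made for each of 7 stages, which in order are the unfertilized egg, the fertilized egg, the 2-cell, the 4-cell and the 8-cell embryo, the morula and the blastocyst. In the treatment set (36 arrays, reference named Universal Reference) 3 arrays were made for each of 12 groups. Late 1-cell embryos at 32 h formed AM, AC, DMSO and control groups, early 2-cell embryos at 43 h the same 4 plus CHX, late 2-cell embryos at 54 h AM and control groups, and early 1-cell embryos at 21 h a control group alone. The labels leave these names unexplained. They are taken here, on general knowledge, to be α-amanitin (AM), which blocks RNA polymerase II, aphidicolin (AC), which blocks DNA polymerase, cycloheximide (CHX), which blocks translation, and a solvent (DMSO). The labels give no strain, dose, number of embryos per array or starting point of the hours, and they do not say whether replicate arrays came from separate collections, so that p-values measure the spread between arrays, which may be technical.

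RefSeq (GRCm38.p6) places Il1r1 on chromosome 1 from 40222480 to 40316201, inside a cluster of 6 receptor genes of the interleukin-1 family that spans 467 kb. Of the 5 other genes of the cluster, Il1r2, Il1rl2, Il1rl1, Il18r1 and Il18rap, 0 had a probe of their own, and of the 6 nearest annotated genes also 0. The sequence table gives Il1r1 2 start sites 41.5 kb apart, and both windows are shown because the probe, annotated with 1 cDNA, does not say from which start the egg and embryo RNA came. Each window of 300 bases spans its start and is printed 5′ to 3′ on the plus strand, and capitals mark motifs searched on both strands. The motifs were GGATTA, the core bound by OTX homeodomain proteins, GGGCGG, the core bound by SP factors, TATAAA, an element of core promoters, CCAAT, bound by NFY, and AGGTCA, the half-site of nuclear receptors. No matches overlapped. The upstream window lies at chr1:40224830-40225129 and the downstream window at chr1:40266336-40266635.
Il1r1 upstream start: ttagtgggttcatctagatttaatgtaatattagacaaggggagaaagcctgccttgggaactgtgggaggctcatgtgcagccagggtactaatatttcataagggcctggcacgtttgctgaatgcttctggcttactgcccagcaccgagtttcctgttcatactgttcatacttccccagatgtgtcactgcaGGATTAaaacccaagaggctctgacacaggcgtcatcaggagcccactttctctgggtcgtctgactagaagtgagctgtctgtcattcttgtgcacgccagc
Il1r1 downstream start: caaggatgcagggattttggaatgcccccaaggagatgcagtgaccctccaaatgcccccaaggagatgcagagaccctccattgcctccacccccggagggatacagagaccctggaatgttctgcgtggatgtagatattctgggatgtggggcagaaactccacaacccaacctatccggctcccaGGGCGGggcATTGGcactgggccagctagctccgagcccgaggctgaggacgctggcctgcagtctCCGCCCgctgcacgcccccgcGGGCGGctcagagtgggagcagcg
The upstream window held 49.3% G and C, 5 CpG dinucleotides and 1 match to GGATTA, a motif found in 7.1% of all 32851 windows of the table. The downstream window held 63.3% G and C, 14 CpG dinucleotides, 3 matches to GGGCGG (found in 35.7% of windows) and 1 to CCAAT (37.4%). Neither held TATAAA (13.6% of windows) or AGGTCA (16.3%). A match is a run of letters and not a shown binding site.

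A value is the log2 of embryo over reference RNA, so 0 means as much as in the reference. The direction of the ratios is likely and not settled. All 6 probes for 5 oocyte genes, Bmp15, Btg4, Dppa3, Kit and Zp2, had a higher mean in unfertilized eggs than at the blastocyst stage. Both probes for Fabp3, the 1 gene measured of 18 listed for trophectoderm, had a lower one. Of 6 probes for 4 inner cell mass genes, 4 were higher in blastocysts than in unfertilized eggs and 2, both for Gata4, were lower. With the other sign all differences would turn round. Pooled embryos on an array do not tell fewer cells with the RNA from less RNA per cell. In the stage set 11 arrays stood apart from the other 17 in the data, without a label that records why: unfertilized egg 4, morulae 3 and 4, and all 8-cell and blastocyst arrays. The step from unfertilized eggs 1 to 3 to egg 4 and that from morulae 1 and 2 to morulae 3 and 4 correlated at 0.601 across probes, and the 11 arrays had 69 to 312 features at the upper limit of the scale, against 322 to 372 in the other 17. Since the 8-cell and 4-cell embryos fall on opposite sides of this split, that step is given below with and without the split, as are the steps from and to morulae, which lie on both sides. Of the leukocyte list 2 of 15 genes were measured. Ptprc, the defining leukocyte gene, was 1.73 or more log2 units below the reference at each of the first 4 stages by both of its probes. Csf1r averaged -0.87, -0.98, -0.41 and -0.82 at these stages. Of the cumulus and granulosa list 4 of 25 genes were measured, with stage means of at most 0.47 at those stages. A ratio to the reference does not show whether such RNA was absent.

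Il1r1 RNA was high in eggs and early cleavage embryos and low from the 8-cell stage on. In unfertilized eggs the 4 arrays read 3.16, 0.87, 1.88 and 1.38, a mean of 1.82 ± 0.98 (SD, n = 4). In fertilized eggs they read 3.72, 3.47, 3.19 and 3.24, a mean of 3.40 ± 0.24, or 10.6-fold over the reference. Every fertilized egg array lay above every unfertilized one, though the closest arrays read 3.19 and 3.16. The unfertilized arrays spread over more than 2 log2 units.

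The RNA stayed above the reference through cleavage to the 4-cell stage, at a lower level in 4-cell embryos than in fertilized eggs. The 2-cell arrays read 2.82, 1.88, 3.69 and 4.04 (3.11 ± 0.97, SD, n = 4) and the 4-cell arrays 2.90, 2.45, 2.61 and 2.78 (2.68 ± 0.20). The 2-cell arrays spread widely and covered the whole range of the 4-cell arrays, which lay close together. Every 4-cell array lay below every fertilized egg array.

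After the 4-cell stage the RNA was below the reference on every array. The 8-cell embryos read -2.26, -2.75, -2.55 and -2.24 (-2.45 ± 0.25, SD, n = 4), 0.183 times the reference. Morulae read -1.42, -1.42, -2.43 and -1.67 (-1.74 ± 0.47), and blastocysts -1.45, -1.63, -1.38 and -1.89 (-1.59 ± 0.23). The 12 arrays of these 3 stages lay between -2.75 and -1.38 and the 16 arrays of the 4 earlier stages between 0.87 and 4.04, a gap of 2.25 log2 units with no overlap.

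**Figure D1:**
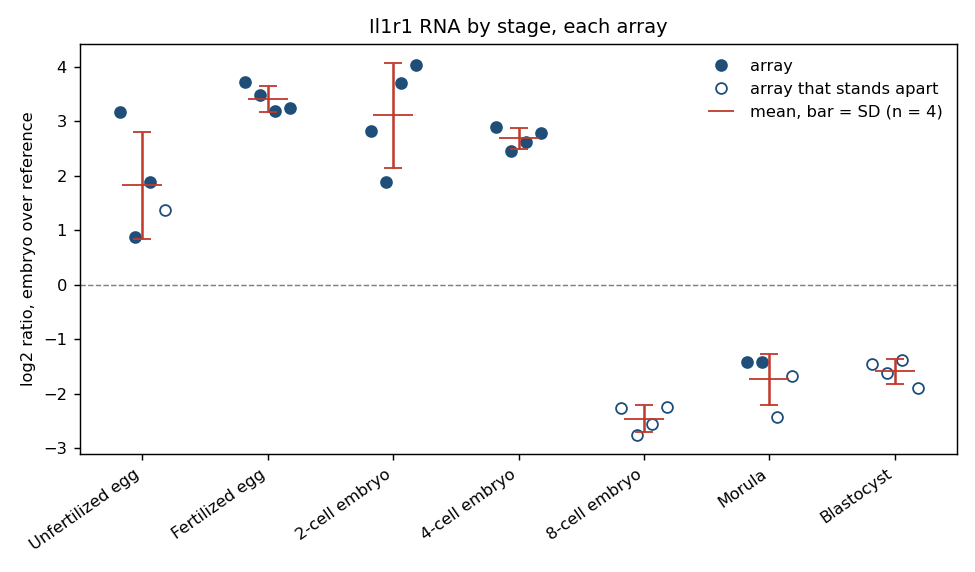
Il1r1 log2 ratio of embryo to reference (y axis) on each of 28 arrays at 7 stages (x axis, in developmental order), with filled points for 17 arrays, open points for the 11 that stand apart, and red bars for the mean and SD of 4 arrays. The 16 arrays up to the 4-cell stage lie above 0 and the 12 later arrays below it, the morulae drawn as filled points included.

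From high to low the stage means ran fertilized egg, 2-cell embryo, 4-cell embryo, unfertilized egg, blastocyst, morula and 8-cell embryo. Among neighbours in this order, the difference exceeded the sum of the SDs of both stages only between unfertilized eggs and blastocysts (3.41 log2 units). The other 5 pairs of neighbours had overlapping arrays, with differences of 0.15 to 0.86. The within-group SD of the probe, pooled over the 7 stages, was 0.58, larger than that of 71.9% of probes.

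The largest step was 8-cell against 4-cell embryos, at -5.14 on the log2 scale, 35.2-fold lower in 8-cell embryos and rank 3 from the lowest among 22575 probes. With the arrays that stand apart as a block the difference was -4.53. Morulae 1 and 2, which do not stand apart, lay -4.11 from the 4-cell arrays (n = 2 and 4), 79.9% of the step and rank 8 from the lowest. The 8-cell arrays lay -3.83 from unfertilized egg 4, the only egg array on their side of the split. Low values were thus measured on both sides of the split. Morulae 3 and 4 differed from morulae 1 and 2 by -0.63, and what else sets the 11 arrays apart was not tested.

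Smaller steps stood on either side of it. Fertilized against unfertilized eggs came to 1.58, and to 1.43 without unfertilized egg 4. The 2-cell embryos differed from fertilized eggs by -0.30 and the 4-cell embryos from 2-cell embryos by -0.42. That last difference turned to 0.11 after quantile normalization and to 0.13 after scaling to 1 interquartile range. Morulae differed from 8-cell embryos by 0.72, or by 0.41 with the arrays that stand apart as a block and 0.33 after scaling to 1 interquartile range. Blastocysts differed from morulae by 0.15, or by 0.45 with that block.

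The probe with 2 symbols lists 3 cDNA accessions, of which 1 is that of the Il1r1 probe, and it followed another course. It averaged -0.63 ± 0.95 in unfertilized eggs, -0.52 ± 0.15 in fertilized eggs, -2.49 ± 1.03 in 2-cell and -3.11 ± 0.42 in 4-cell embryos (SD, n = 4 each), with -3.56, -3.46 and -3.08 at the 3 later stages. It lay below the reference at every stage mean and was already low in the 4-cell embryos, where the Il1r1 probe was high. Which of its symbols it reads cannot be said from the table, so it is given as a value and not as Il1r1.

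Genes with a course like that of Il1r1 were sought among 1279 other genes with a probe of their own whose stage means span at least 2 log2 units. Likeness was Pearson's r over the 28 arrays, given as a description, since these points share 7 stages and the split into 17 and 11 arrays. The median over the 1279 genes was 0.34 and 8 exceeded 0.9. The first 10 were Pard3 (0.950), a scaffold of cell polarity, Ppa1 (0.949), an inorganic pyrophosphatase, Wapl (0.940), which releases cohesin from chromosomes, and Rps12 (0.931), a ribosomal protein gene, followed by Bod1l (0.913), which protects stalled replication forks, Cyb5b (0.907), a cytochrome b5 of the mitochondrial outer membrane, Zkscan1 (0.907), a zinc finger gene, Adcy2 (0.901), an adenylate cyclase, Pigb (0.894), an enzyme of GPI anchor synthesis, and Ubn2 (0.885), a subunit of a histone chaperone complex. By Spearman's rho 4 of these 10 stay among the first 10, and by the 7 stage means 3 do.

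Pard3 read 4.45, 3.44, 3.35 and 3.17 in unfertilized eggs, 3.08, 3.77, 3.64 and 3.34 in 4-cell embryos and 1.10, 0.94, 0.52 and 1.22 in 8-cell embryos. It stayed above the reference at every stage, unlike Il1r1. Between 8-cell and 4-cell embryos the 10 genes differed by -3.50 (Zkscan1) to -1.74 (Cyb5b), all less than Il1r1. In morulae 1 and 2 against 4-cell embryos the share of this step that was seen ran from 45.8% for Pard3 to 94.0% for Pigb and 106% for Cyb5b, and none of the 10 had overlapping arrays there. Those arrays were among the ones used to choose the 10 genes, so this separation is a description and not a check. Over the 36 treatment arrays, which did not enter the choice, r with Il1r1 was 0.813 for Rps12, 0.654 for Adcy2 and 0.648 for Ubn2, 6 of the 10 exceeded 0.5, and Zkscan1 had 0.093. Some arrays were low for several of these genes at once. AC array 2 at 43 h read 1.82 for Il1r1 and 0.20, -0.14 and -1.03 for Rps12, Adcy2 and Ubn2. Control array 1 at 21 h read 0.68 for Il1r1 and 0.37, 1.62 and -1.20 for those genes. The values of r without these arrays were not computed. Within the stages, as deviations from the stage means, r ran from 0.091 for Pigb to 0.851 for Ppa1. In AM against control embryos at 54 h, where Il1r1 differed by 0.11, Zkscan1 rose by 1.21 (adjusted p = 0.000348 by limma). The other 9 were not called, beside 6.45% of all probes called.

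**Figure D2:**
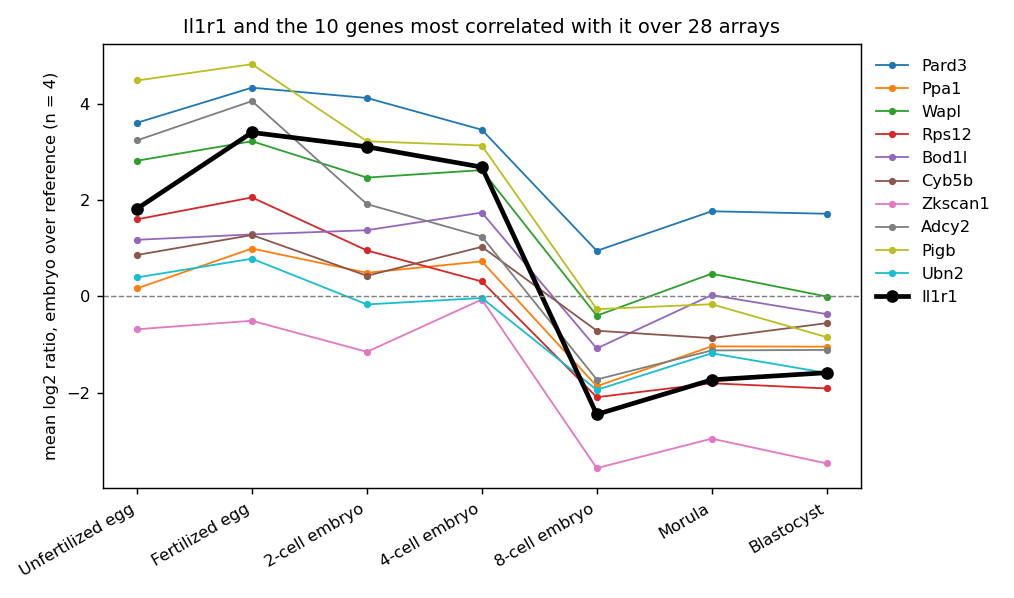
Mean log2 ratio of embryo to reference (y axis, n = 4 arrays) at the 7 stages (x axis) for Il1r1 (thick black line) and the 10 genes most correlated with it over the 28 arrays (thin lines). Il1r1 has the widest drop between 4-cell and 8-cell embryos, -5.14 against -3.50 to -1.74 for the 10 genes.

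In the treatment set the gene's level could be tested, since these arrays were not used to choose it. These values were quantile-normalized within the set, whose reference has another name, and are not set against the stage levels. Il1r1 was above the reference on all 36 arrays, from 0.68 to 4.64 with a median of 3.20. The set ends at 54 h in late 2-cell embryos, before the stages at which the RNA was low. Of 21 comparisons tested with limma, 0 passed an adjusted p of 0.05 for Il1r1, and 1 had an unadjusted p under 0.05 (0.00695). By group mean the order ran from AC at 32 h (4.21) over the other 32 h groups, which filled the next 3 places, to CHX at 43 h (2.55) and the 21 h controls (2.00), the last 2 of 12. The within-group SD of the probe was 0.81 here, larger than that of 92.6% of probes, which sets the width of the intervals below.

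Control embryos read 0.68, 3.51 and 1.83 at 21 h (2.00 ± 1.42, SD, n = 3) and 3.24, 4.64 and 3.70 at 32 h (3.86 ± 0.71). The later controls read 1.41, 3.78 and 3.82 at 43 h (3.00 ± 1.38), followed by 2.76, 3.02 and 2.93 at 54 h (2.90 ± 0.13). The 21 h and 43 h arrays spread over more than 2 log2 units, and neighbouring times overlapped in their arrays. Array 1 at 43 h had a median of -0.35 over all probes as deposited, the lowest of the set. At 32 against 21 h the difference was 1.85 ± 0.63 (SE, 95% interval 0.55 to 3.16), with an adjusted p of 0.287 by limma, where 0.315% of all probes were called. It was 1.19 without array 1 at 21 h and 2.61 without array 3 at 21 h, whose values of 0.68 and 3.51 are the ends of that group. At 43 against 32 h Il1r1 differed by -0.85 ± 0.63 (-2.16 to 0.45, adjusted p = 0.704 by limma, 3.6% of probes called), at 54 against 43 h by -0.10 (-1.40 to 1.20, adjusted p = 0.975, 4.08% called) and at 54 against 21 h by 0.90 (-0.40 to 2.20, adjusted p = 0.426, 13.1% called). Without array 1 at 43 h the difference at 43 against 32 h was -0.057, and the difference at 54 against 21 h was 0.23 without array 1 and 1.65 without array 3 at 21 h.

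AM embryos were set against controls to ask whether the RNA depends on new transcription. They read 3.74, 3.61 and 3.13 at 32 h (3.49 ± 0.32, SD, n = 3), 2.72, 3.62 and 2.74 at 43 h (3.03 ± 0.51), followed by 2.12, 3.86 and 3.06 at 54 h (3.02 ± 0.87). At each hour the AM arrays overlapped with the control arrays. AM minus control was -0.37 at 32 h (95% interval -1.67 to 0.94, adjusted p = 1 by limma), 0.02 at 43 h (-1.28 to 1.32, adjusted p = 1) and 0.11 at 54 h (-1.19 to 1.42, adjusted p = 0.969). The interval at 54 h runs from 0.439-fold to 2.67-fold, so a change inside it is not excluded with 3 arrays. It is not adjusted for the number of probes and is no limit of detection. Over all probes limma called 0% at 32 h (475 at an unadjusted p under 0.05), 0% at 43 h (982) and 6.45% at 54 h.

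Under AM the level was followed over time as well. Il1r1 differed by -0.47 between 43 and 32 h (adjusted p = 0.862 by limma, 3.41% of probes called), by -0.01 between 54 and 43 h (adjusted p = 0.996, 0.12% called) and by -0.48 between 54 and 32 h (95% interval -1.78 to 0.82, adjusted p = 0.634, 19% called). The effect of AM itself was compared between hours: 43 against 32 h gave 0.39 (-1.45 to 2.23, adjusted p = 1 by limma, 0% of probes called and 302 at an unadjusted p under 0.05), 54 against 43 h gave 0.09 (adjusted p = 0.991, 0.0797% called) and 54 against 32 h gave 0.48 (adjusted p = 0.897, 1.47% called).

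**Figure D3:**
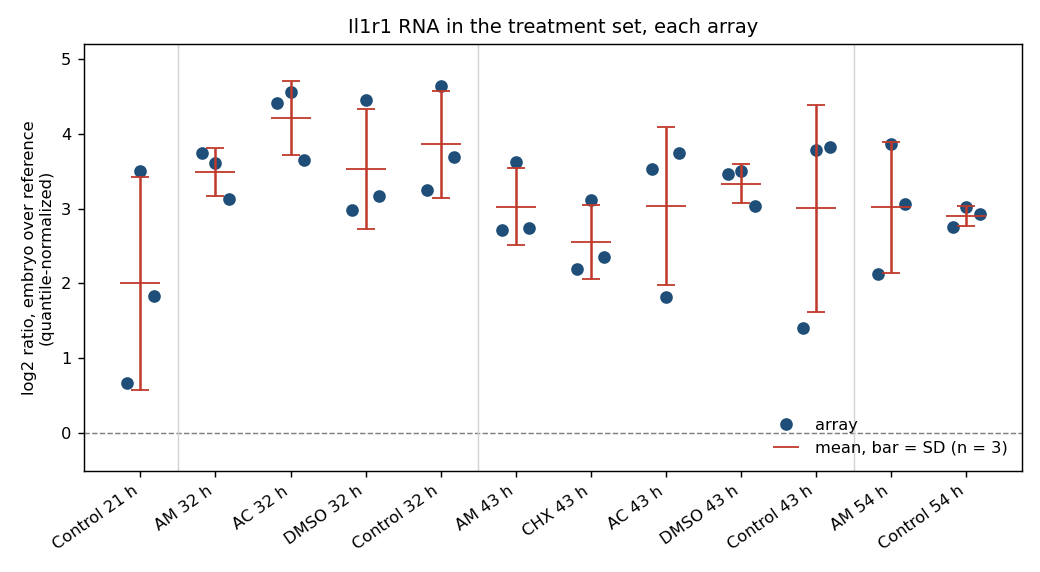
Il1r1 log2 ratio of embryo to reference after quantile normalization (y axis) on each of the 36 treatment arrays in 12 groups (x axis, ordered by hour), with red bars for the mean and SD of 3 arrays. All 36 points lie above 0, from 0.68 to 4.64, and at each hour the groups overlap.

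AC was compared with DMSO, read here as its solvent control. At 32 h AC embryos read 4.42, 4.56 and 3.64 (4.21 ± 0.49, SD, n = 3), against 2.98, 4.45 and 3.16 in DMSO embryos (3.53 ± 0.80). At 43 h AC embryos read 3.53, 1.82 and 3.75 (3.03 ± 1.05), against 3.46, 3.50 and 3.03 in DMSO embryos (3.33 ± 0.26). The groups overlapped at both hours, with AC array 2 at 43 h the lowest of these 12. The difference was 0.67 at 32 h (95% interval -0.63 to 1.97, adjusted p = 1 by limma, 0% of probes called and 424 at an unadjusted p under 0.05) and -0.30 at 43 h (-1.60 to 1.01, adjusted p = 0.899, 0.204% called). The change of this difference from hour to hour was -0.97 (-2.81 to 0.87, adjusted p = 0.921 by limma, 0% called and 1324 at an unadjusted p under 0.05). Between 43 and 32 h Il1r1 differed by -1.17 in AC embryos (-2.47 to 0.13, adjusted p = 0.192, 17.1% of probes called; -0.56 without AC array 2 at 43 h, and -0.46 with arrays centred on their medians) and by -0.20 in DMSO embryos (-1.51 to 1.10, adjusted p = 0.858, 24.3% called).

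CHX embryos, in which protein synthesis is read as blocked, had 2.19, 3.12 and 2.35 at 43 h (2.55 ± 0.50, SD, n = 3), against 1.41, 3.78 and 3.82 in controls of that hour. All 3 CHX arrays lay between the lowest and the next control array. The difference was -0.45 (95% interval -1.75 to 0.85, adjusted p = 0.804 by limma), where 2.25% of all probes were called. DMSO against control gave -0.33 at 32 h (-1.63 to 0.98, adjusted p = 0.932, 0.656% of probes called) and 0.33 at 43 h (-0.98 to 1.63, adjusted p = 0.987, 0% called and 1655 at an unadjusted p under 0.05).

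**Figure D4:**
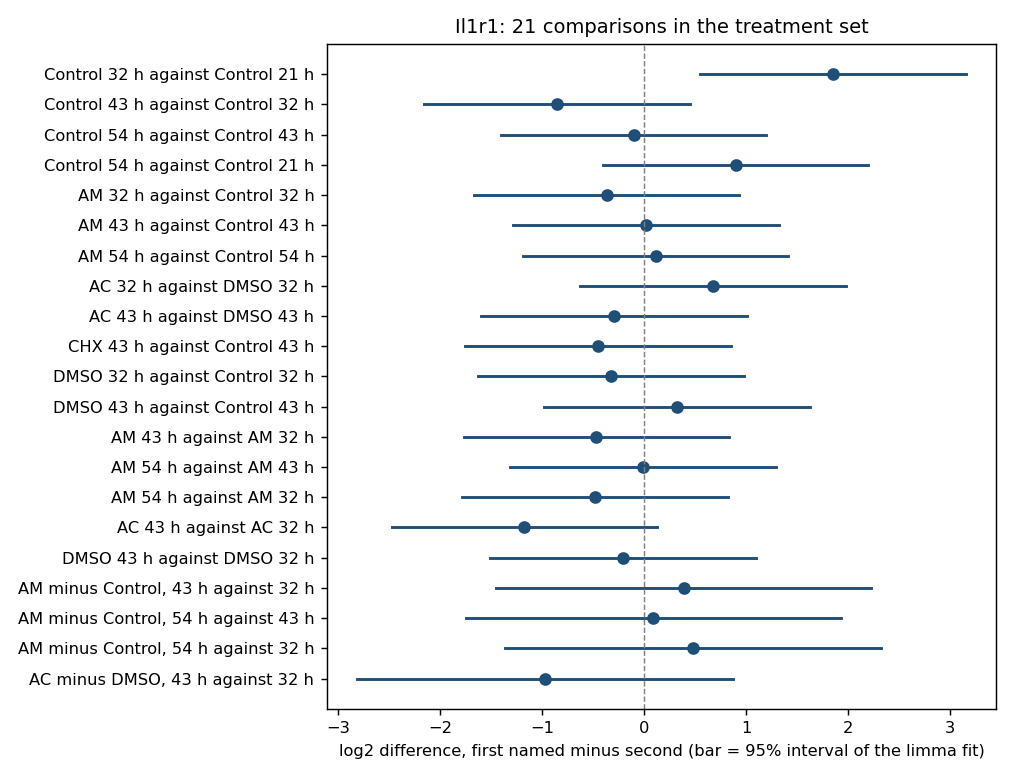
Log2 difference of Il1r1 (x axis, first named minus second, bar = 95% interval of the limma fit, not adjusted for the number of probes) for 21 comparisons of the treatment set (y axis). 20 of the 21 intervals hold 0, and the exception, control embryos at 32 against 21 h (0.55 to 3.16), had an adjusted p of 0.287.

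The rest of the pathway was thinly covered by probes of their own. Of 9 further receptors of the family 0 were measured, and of 13 ligands and related genes 1, the gene Il18bp for a secreted binder of interleukin-18. Measured were 4 of 22 adapters and kinases, 5 of 23 genes of the NF-kB module, 7 of 29 of the MAP kinase module, 5 of 32 response genes and 20 of 73 other cytokine and growth factor receptors. That made 42 genes of 201 listed, each counted by its probe of largest difference.

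Between 2-cell embryos and fertilized eggs, where Il1r1 differed by -0.30, 13 of the 42 genes were called, 5 higher and 8 lower, beside 14.5% of all probes higher and 12.9% lower. Among adapters 3 of 4 were called lower and 0 called higher in 2-cell embryos, with a list median of -1.34 against 0.09 for all probes. Called were Traf6, the ubiquitin ligase of the receptor complex, Ube2n, the conjugating enzyme that works with it, and Tollip, an adapter that damps the signal (-0.73, adjusted p = 0.00471 by limma). The remaining adapter, Irak3, went the other way without a call, from a mean of 0.59 in fertilized eggs to 1.34 in 2-cell embryos. Ube2n fell by 2.32 by probe 14019. In the MAP kinase module Map2k1, a kinase that acts on ERK, fell by 3.47 (adjusted p = 1.29e-09), Mapk8, the kinase JNK1, fell by 3.05, and Atf2, a factor that JNK and p38 act on, fell by 2.03, while Mapk9, the kinase JNK2, rose by 1.45 by probe 2863 (-0.57, not called, by probe 8396) and Map2k4, which acts on JNK, rose by 1.25. The NF-kB module had 2 of 5 higher, Btrc, which marks inhibitors of NF-kB for decay (1.20 by probe 15316 and -0.68, not called, by its other probe), and Nfkbie, one of those inhibitors, and 0 lower.

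Traf6 was also high in eggs and low from the 8-cell stage on. Its arrays read 3.06, 1.65, 1.97 and 2.34 in unfertilized eggs, 3.84, 2.69, 2.43 and 3.07 in fertilized eggs, 0.79, 1.39, 1.05 and 1.02 in 2-cell embryos, -0.41, -0.55, -0.49 and -0.42 in 4-cell embryos and -2.10, -2.23, -2.13 and -1.99 in 8-cell embryos, with -1.71 and -1.63 as the means of morulae and blastocysts. No 2 of the stages from the fertilized egg to the 8-cell embryo overlapped. It fell by 1.94 ± 0.26 (SE, n = 4 per stage) at the 2-cell stage against the fertilized egg (adjusted p = 2.35e-06 by limma), by 1.53 at the 4-cell against the 2-cell stage (adjusted p = 0.000265) and by 1.64 at the 8-cell against the 4-cell stage (adjusted p = 3.57e-05). Its decline ran over 3 steps, and in 4-cell embryos it was below the reference on every array, where Il1r1 was above it. The difference between the courses of the 2 genes was not tested.

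Between 8-cell and 4-cell embryos, the step at which Il1r1 was lost, 21 of the 42 listed genes were called, 12 higher and 9 lower, beside 20.9% of all probes higher and 20.2% lower. The 8-cell and 4-cell arrays lie on opposite sides of the split described above, and with the arrays that stand apart as a block 1 of the 42 was called, beside 2.56% of all probes. That gene was Traf6, at -1.64 without and -1.51 with the block (adjusted p = 0.0268). The split can be estimated only within unfertilized eggs and morulae, the stages with arrays on both sides, so the fit with the block is imprecise here. Loss of a call need not mean a smaller difference. Nfkbib (0.54 without and 0.56 with the block) and Tollip (0.58 and 0.55) kept their size but were no longer called. For the other genes named here the difference, by the probe of largest difference, was smaller with the block. Values with the block stand in brackets below. Il18bp fell by 1.59 (-0.90). By 1 of its 3 probes Ube2n fell by 1.61 (0.06), while its probe 14019 rose by 0.61 (0.73). Map3k14, a kinase of the non-canonical NF-kB route, fell by 2.02 (-0.97) and Nfkbie by 0.95 (-0.45). Cyld, a deubiquitinase that limits NF-kB, rose by 1.09 (0.68). Among MAP kinase genes Mapk9 rose by 2.54 (1.21) by probe 8396 and fell by 1.49 (-0.42) by probe 2863. Mapk14, the kinase p38α, rose by 2.39 (0.01) and Map2k4 by 1.01 (0.04). Map2k1 fell by 1.04 (0.09) and Atf2 by 0.83 (-0.40).

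The response genes and other receptors are set beside the 20.9% of all probes called higher and the 20.2% called lower at this step. Of 5 response genes 1 was called, Nos2, the inducible nitric oxide synthase, which rose by 1.59 (0.22 with the block, not called). The list median was -0.53 against -0.06 for all probes. Of 20 other receptors 5 were higher and 2 lower. Among the higher were the activin receptor gene Acvr2a (2.14), the leptin receptor gene Lepr (1.90), Erbb3 (1.53) and Fgfr1 (1.37 by probe 5425). The other probe of each of these genes was not called, at 0.16 for Acvr2a, 0.50 for Lepr, 0.38 for Erbb3 and -0.49 for Fgfr1. Lower were the interferon-γ receptor gene Ifngr1 (-2.08) and the interleukin-2 receptor gene Il2ra (-0.76). The median of the 20 was -0.06. With the block these 7 genes, by their probe of largest difference, ranged from -0.36 for Ifngr1 to 0.51 for Acvr2a and were not called.

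**Figure D5:**
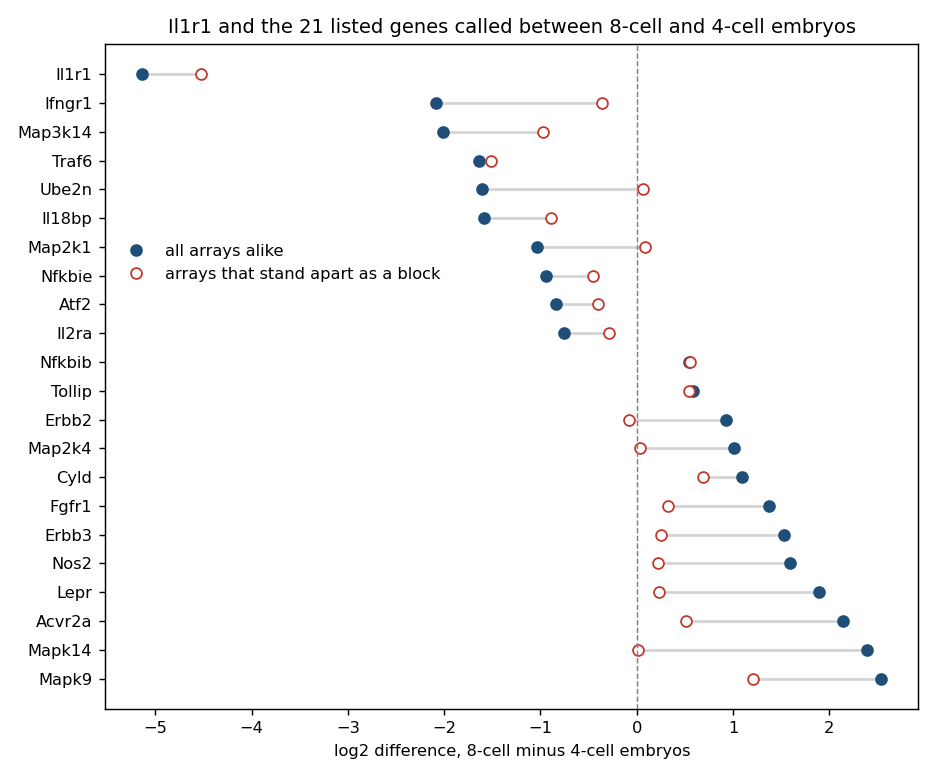
Log2 difference of 8-cell minus 4-cell embryos (x axis) for Il1r1, given with no test, and the 21 listed genes called by limma (y axis), with filled points for all arrays treated alike and open points for the fit with the arrays that stand apart as a block. Il1r1 lies at -4.53 with the block and -5.14 without it and Traf6 at -1.51 and -1.64, while Mapk14 and Ube2n come to lie at 0.01 and 0.06.

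The other stage steps held few calls. Tollip was the 1 gene called in fertilized against unfertilized eggs (-0.97, 0.443% of probes lower and 0.323% higher). In 4-cell against 2-cell embryos 2 were higher and 3 lower, beside 9.58% and 4.04% of probes. In morulae against 8-cell embryos 1 was higher and 1 lower (3.24% and 1.64%), and in blastocysts against morulae 0 of 42 were called by limma (4 at an unadjusted p under 0.05, beside 0.815% and 0.514% of probes). These small counts changed with single arrays, as given in the closing section.

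Under the inhibitors few of the listed genes were called. In AM against control embryos 0 of 42 were called by limma at 32 h (2 at an unadjusted p under 0.05) and at 43 h (1) and 1 at 54 h, the gene Egfr for the epidermal growth factor receptor (probe 19879, 1.37 ± 0.30 SE, adjusted p = 0.00487), beside the shares of all probes given above. Its other probe read 0.36 (adjusted p = 0.812). Traf6 averaged 1.65 in AM and 1.49 in control embryos at 54 h, a difference of 0.16 ± 0.57 (SE, adjusted p = 0.942). In controls at 32 against 21 h Traf6 differed by 1.76 ± 0.57 and Il1r1 by 1.85 ± 0.63 (SE, adjusted p = 0.234 and 0.287 by limma), with arrays of 3.44, 4.42 and 3.76 against 1.34, 3.17 and 1.82 for Traf6, which do not overlap. AC against DMSO called 0 of 42 by limma at 32 h (0 at an unadjusted p under 0.05) and at 43 h (3, or 4 adjusted calls without AC array 1), CHX against control also 0 (13), and DMSO against control at 32 h called 1, Btrc (probe 15316, -2.45, adjusted p = 0.00139), whose other probe read 0.09. DMSO against control at 43 h called 0 of 42 (3 at an unadjusted p under 0.05). In controls limma called 0 at 32 against 21 h (6 at an unadjusted p under 0.05), 2 at 43 against 32 h, both lower, and 1 at 54 against 43 h, lower.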

How the data were processed

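The authors deposited 1 table of 22575 probes on 64 arrays, whose values lie between -2 and 2 and are read as log10 ratios of the 2 channels from those limits. For log base, background correction, centring, dyes, software and build, the entry is "not given in the sources used here". The table was multiplied by -3.32 to give log2 ratios of embryo to reference. A set was quantile-normalized if its array medians spanned over 0.5 log2 units, which held for the treatment set (0.53) and not for the stage set (0.24). Il1r1 had 0 of 64 values at a limit.

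Each set was fitted with limma 3.58.1 in R 4.3.3 (1 mean per group, eBayes, two-sided Benjamini-Hochberg over all probes, adjusted p under 0.05), and the fit was tested on simulated data. Genes were named only through probes with 1 symbol (4262 probes). The number of arrays limits the precision. The member and the gene lists were chosen with earlier results of these data known. Named genes are the member, the 10 most like it, measured ligands and receptors, and at most 4 called genes a list and direction. Same-numbered arrays were checked for pairing. Of their pairs, 22 of 84 in the stage set and 81 of 177 in the treatment set had deviations correlated above 0.1. In the stage set the median correlation was -0.015 for same-numbered and -0.011 for other arrays. In the treatment set these medians were 0.076 and -0.033, so a weak pairing there is not excluded. The numbers were not treated as pairs in the main fits. Alternatives were other scalings, the replicate number or the arrays that stand apart as a block, the mean of a gene's probes and leaving out each array.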

Additional observations from a re-analysis of the deposited data

Results flagged for a closer look

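Among 35 stage groups of 4 arrays examined for single arrays far from the rest (Il1r1, the probe with 2 symbols, Pard3, Ppa1 and Wapl at 7 stages each), 2 had one, and chance marks about 1 in 20. Ppa1 read -1.38 on blastocyst array 4, with the others between -0.98 and -0.90. Wapl read 1.54 on unfertilized egg array 4, the egg array that stands apart from the others, which read between 3.13 and 3.40. No Il1r1 group was among them.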

How the results depend on the processing

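The loss of Il1r1 at the 8-cell stage kept its direction under all settings run. None of the 21 treatment comparisons was called for Il1r1 under any setting (297 values). The lowest adjusted p, 0.0526 by limma, was that of controls at 32 against 21 h. The 8-cell minus 4-cell difference was -4.53 with the arrays that stand apart as a block. After seeing the data, morulae 1 and 2 in place of 8-cell embryos (-4.11) and unfertilized egg 4 in place of 4-cell embryos (-3.83) were added. With that block the levels were 3.10 in fertilized eggs, 2.38 in 4-cell embryos, -2.15 in 8-cell embryos and -1.28 in blastocysts. Scaling to 1 interquartile range gave 2.95 in 4-cell and -2.12 in 8-cell embryos and turned the 4-cell minus 2-cell difference to 0.13, and quantile normalization turned it to 0.11. The 2-cell minus fertilized egg difference was -0.72 after quantile and -0.62 after interquartile scaling. Morula minus 8-cell was 0.41 with that block, 0.42 after quantile and 0.33 after interquartile scaling, and blastocyst minus morula 0.45 with that block.

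Small treatment differences turned with the scaling. As deposited they were 0.28 for controls at 54 against 43 h, 0.029 for CHX, 0.015, 0.057 and 0.071 for AM at 43 against 32 h, 54 against 43 h and 54 against 32 h, 0.50 for DMSO at 43 against 32 h and -0.23 for the AM effect at 54 against 43 h. With arrays centred on their medians these were 0.18 for the controls, 0.055, 0.091 and 0.15 for AM, 0.60 for DMSO and -0.094 for the AM effect. Scaling to 1 interquartile range gave -0.11 and -0.095 for AM minus control at 43 and 54 h. Without normalization the median probe differed by 0.18 for AM and 0.20 for CHX against control at 43 h and 0.20 for controls at 54 against 43 h.

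Leaving out single arrays gave AM minus control of -0.68 to 0.024 at 32 h (highest without control array 2), -0.78 to 0.43 at 43 h (lowest without control array 1) and -0.31 to 0.56 at 54 h (lowest without AM array 2). AC minus DMSO at 43 h ran from -0.65 to 0.31 (highest without AC array 2). DMSO minus control ran from -0.79 to 0.064 at 32 h and -0.47 to 0.73 at 43 h, controls at 54 against 43 h from -0.90 to 0.30, AM at 54 against 43 h from -0.43 to 0.43 and DMSO at 43 against 32 h from -0.48 to 0.26. Controls ran from 1.19 to 2.61 at 32 against 21 h, -1.26 to -0.057 at 43 against 32 h and 0.23 to 1.65 at 54 against 21 h. CHX minus control ran from -1.25 to -0.044 (lowest without control array 1), AC minus DMSO at 32 h from 0.40 to 1.13, AC at 43 against 32 h from -1.52 to -0.56, the AC effect at 43 against 32 h from -1.43 to -0.36, AM at 43 against 32 h from -0.76 to -0.31 and AM at 54 against 32 h from -0.90 to -0.030. The AM effect ran from 0.056 to 0.92 at 54 against 32 h, from -0.41 to 0.79 at 43 against 32 h and from -0.33 to 0.89 at 54 against 43 h. Among stages, 2-cell minus fertilized egg ran from -0.61 to 0.11 (highest without 2-cell array 2) and blastocyst minus morula from -0.082 to 0.25 (lowest without morula array 3).

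Counts of listed genes called were less stable. With the arrays that stand apart as a block they were 2 in fertilized against unfertilized eggs, 9 in 4-cell against 2-cell embryos, 1 in 8-cell against 4-cell embryos, 0 in morulae against 8-cell embryos (by limma) and 1 in blastocysts against morulae. Quantile normalization of the stage set, added after seeing the data, gave 3 in fertilized against unfertilized eggs and 1 in blastocysts against morulae. The mean of a gene's probes gave 1 in morulae against 8-cell embryos, 1 in controls at 43 against 32 h and 0 for AM at 54 h. Median centring gave 3 in controls at 54 against 43 h and 1 for CHX. A fit with the replicate number as a block gave 3 in 4-cell against 2-cell embryos, 0 in controls at 54 against 43 h, 3 for AM at 54 h and 1 for CHX. It moved no Il1r1 call.

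Leaving out single arrays, the counts ran from 0 to 4 in fertilized against unfertilized eggs (0 without unfertilized egg 2 or 3 or fertilized egg 2, 2 without unfertilized egg 1, 4 without unfertilized egg 4). In 4-cell against 2-cell embryos they ran from 1 to 8 (1 without 2-cell array 2 or 4-cell array 4, 2 without 2-cell array 1 or 4-cell array 2, 3 without 4-cell array 1 or 3, 8 without 2-cell array 4). In morulae against 8-cell embryos they ran from 0 to 8 (0 without 8-cell array 2 or 3 or morula 1 or 2, 1 without 8-cell array 4, 5 without morula 4, 8 without morula 3), and in blastocysts against morulae from 0 to 1 (1 without morula 3). AM at 54 h gave 1 to 3 (3 without AM array 1, 2 without AM array 2 or 3), AC at 43 h 0 to 4 (4 without AC array 1), CHX 0 to 1 (1 without CHX array 4), DMSO at 32 h 1 to 2 (2 without control array 3) and controls at 54 against 43 h 0 to 1 (0 without 43 h array 1 or 3 or any 54 h array). The causes of these shifts were not tested. Groups of 3 or 4 arrays and the wide spread of the probe limit the precision.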
